A study of Mus musculus with 18 samples.

Results

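Nsd1 encodes a histone methyltransferase that places methyl groups on lysine 36 of histone H3. In human acute myeloid leukemia, NSD1 is also known as a fusion partner of the nucleoporin gene NUP98, the gene that both transgenes of these mice carry in fused form. Where an exon meets the following intron lies the splice donor, the short sequence at which the spliceosome cuts, and calls there are annotated as splice changes whatever the inserted bases are.

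The Nsd1 calls described here are the 28 rows with that gene name among 2653 deposited calls, at 19 distinct sites. They were selected by gene name from calls that themselves rest on measured reads, and Nsd1 was picked with earlier results of these calls known, so all values are a description without a test. The 28 calls comprise 19 insertions, all at the ends of exons, 8 listings of the synonymous change K1530K, and 1 change of a base in an intron. Nsd1 lies on chromosome 13 (55209782 to 55318325 in the RefSeq gene table of GRCm38.p6), and the calls refer to the transcript NM_008739.3, with 23 exons, 22 introns and a coding length of 8076 bases.

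The calls come from exomes of 17 leukemias, every one of a different mouse, with 11 sampled in the thymus and 6 in the bone marrow. All mice were double transgenic on the C57Bl6-NIH background: NP23 encodes a fusion of NUP98 with PHF23, and NHD13 encodes a fusion of NUP98 with HOXD13. All 17 are labelled as thymic AML, ages are not given in the labels, and both transgenes are known to be driven by Vav1 regulatory elements, which are active in blood cells. The normal sample was tail DNA of 1 wild-type C57Bl6-NIH mouse, which carries neither transgene, and the labels match it to no single leukemia. Mouse numbers with the ending NN (9 leukemias) were told apart from those without it (8 leukemias, called plain here), and the labels do not say what the ending means, so the ending and any batch behind it cannot be told apart. All coordinates are those of mm10 as deposited. As a measure of depth, 23 sites on assembled chromosomes that 10 or more leukemias listed were used. For each leukemia the median was taken over those of them that it listed itself. The sites thus differed between leukemias, for example 14 in M61 and 23 in M58. It ran from 38 to 130 reads over the 17 leukemias, and from 48 to 121.5 reads in the NN leukemias.

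The insertions at the end of exon 21 were the most widely shared, and their bases are shown to let the 4 leukemias be compared. They followed coding base 6261, at chromosome 13, position 55307042. In M53 and M58 the caller gave 1 insertion, and in M54 and M55 it gave 2 insertions 2 bases apart, which it had phased onto the same haplotype. Joined in order, these calls read as follows, with inserted bases in capitals, reference bases between insertions in lower case, and n for a reference base that no deposited row gives.

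M58: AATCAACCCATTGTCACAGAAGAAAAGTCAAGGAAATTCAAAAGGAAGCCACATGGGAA
M53: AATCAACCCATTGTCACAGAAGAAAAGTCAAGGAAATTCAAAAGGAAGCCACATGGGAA
M54: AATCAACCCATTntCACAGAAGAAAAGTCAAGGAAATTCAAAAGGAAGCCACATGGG
M55: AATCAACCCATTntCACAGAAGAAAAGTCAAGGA

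The M53 and M58 alleles were identical over 59 bases. With the reference bases counted in, the M54 allele equalled the start of that allele over 57 bases and the M55 allele over 34 bases, with 1 base in each not compared. The 4 leukemias, from thymus (M53, M54, M55) and bone marrow (M58), thus shared 1 inserted sequence as far as each was assembled. The 59-base alleles came from the leukemias with most reads of the insertion, and the 34-base allele from the one with fewest, with 77 alternative reads in M58, 21 in M53, 12 in M54 and 5 in M55.

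At the end of exon 19, after coding base 6012 and the first base of the intron (position 55301844), the alleles of M54 and M59 likewise shared their sequence. The M54 allele was called as 1 insertion and the M59 allele as 2 phased insertions 1 base apart.

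M54: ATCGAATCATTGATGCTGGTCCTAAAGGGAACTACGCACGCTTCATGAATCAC
M59: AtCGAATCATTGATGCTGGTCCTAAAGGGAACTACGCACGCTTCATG

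All 47 bases of the joined M59 allele equalled the start of the 53-base M54 allele. Over the gene, 12 combinations of a leukemia and an exon end carried an insertion. In 7 of these the deposited rows split it into 2 calls, each time phased together, so that 14 of the 19 insertion calls belonged to pairs. Among all 297 insertion calls in the table, 19 of them in Nsd1, 36 such phased pairs were listed, 7 of them in Nsd1. As separate calls, 8 of the 19 Nsd1 insertions shared a run of at least 12 bases with another Nsd1 insertion.

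**Figure D1:**
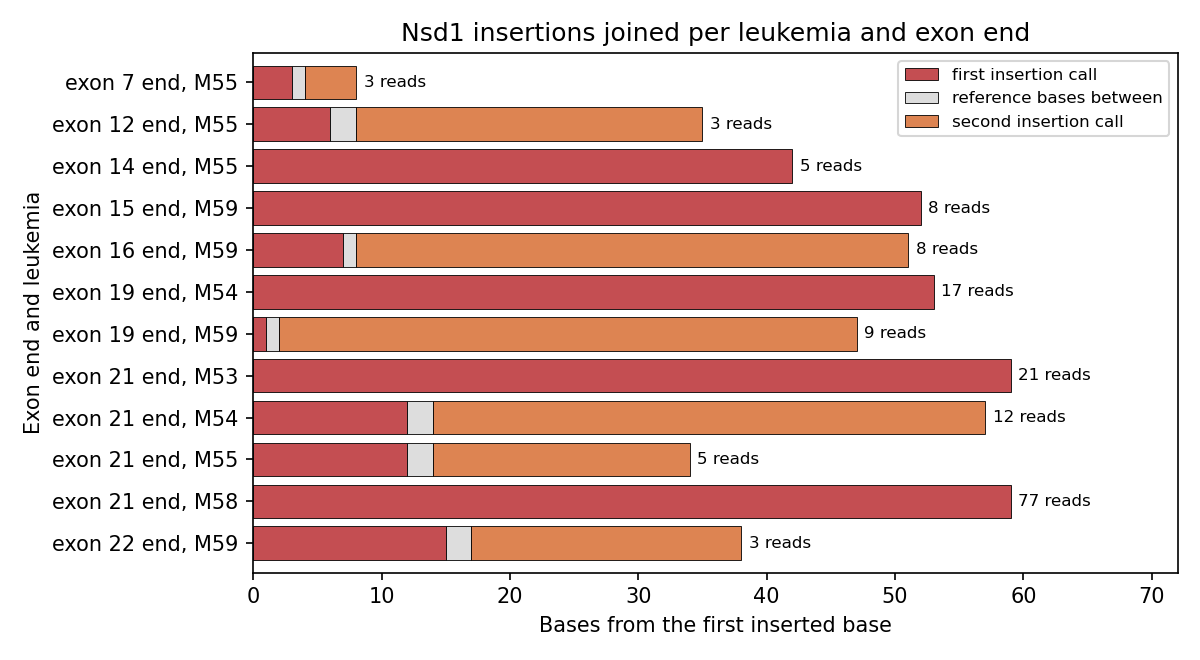
Joined Nsd1 insertions, 1 bar for each exon end and leukemia, with length in bases on the x axis. Red and orange mark the first and the second inserted stretch, grey the reference bases between them, and the number at each bar counts the alternative reads of the first call; the joined lengths run from 8 bases in M55 to 59 bases in M53 and M58.

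Of the 8 exon ends with an insertion, 2 (exons 19 and 21) were called in 2 or more leukemias and 6 in 1 leukemia. The insertions at the ends of exons 7, 12 and 14 were listed in M55 only. At the ends of exons 15, 16 and 22 they were listed in M59 only, and no depth is given for leukemias not listed. The longest allele at each of these exon ends except exon 7, where only 8 bases were joined, is shown from the end of the exon on, to make the reading frame visible. Capitals again mark inserted bases, and lower case the reference intron bases kept before or between them.

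Exon 12, M55: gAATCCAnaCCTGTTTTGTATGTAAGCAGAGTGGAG
Exon 14, M55: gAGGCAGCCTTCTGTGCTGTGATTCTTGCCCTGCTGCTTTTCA
Exon 15, M59: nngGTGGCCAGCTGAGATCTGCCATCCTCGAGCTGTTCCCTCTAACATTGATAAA
Exon 16, M59: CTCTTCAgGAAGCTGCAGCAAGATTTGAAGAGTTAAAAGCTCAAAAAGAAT
Exon 22, M59: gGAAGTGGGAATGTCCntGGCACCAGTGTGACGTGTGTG

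These exon ends lie at coding bases 4768, 5149, 5306, 5512 and 6466, and that of exon 7 at 4195. Read on from the codon open at the exon end, the longest alleles of the 8 exon ends held 0 stop codons in 106 complete codons. With the frame moved by 1 base they held 2 stop codons in 110 codons, and moved by 2 bases 10 in 106. All 8 alleles were free of stops in the frame of the exon, against 6 and 2 of the 8 in the shifted frames. The exon 7 and exon 21 alleles had 0 stops in any frame, so they do not tell the frames apart, and alleles this short can lack a stop in any frame.

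Alleles from different exon ends did not resemble each other. None of the 59 pairs of alleles from different exon ends matched from their first base, and the longest run any of these pairs shared was 7 bases, while all 7 pairs from the same exon end matched. Against 51 insertions of at least 12 bases in other genes, the longest shared run was 8 bases. The exon lengths that the deposited exon ends give are 157 bases for exon 15, 206 for exon 16 and 205 for exon 22. The alleles at the ends of the exons before these 3 were 42, 52 and 59 bases long, shorter than the exon that follows. Whether the inserted bases equal those of another exon was not analysed here.

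Position set the Nsd1 insertions apart from those of other genes. All 19 were placed within 4 bases of the end of an exon and 0 before the start of one, 12 of them annotated as splice donor and 7 as splice region changes. Among 278 insertion calls of other genes, 8 (2.88%, interval 1.25% to 5.59%) fell on the first or last 4 intron bases, in 7 genes. This measure was part of how Nsd1 came to be picked, so the contrast is given without a test. Gcn1l1 had 2 such calls, both in M19, and Cacna1b, Cpa1, Ddx5, Hdlbp, Lrguk and Smarca2 had 1 call each. The insertion in Smarca2, in M31, had the most alternative reads of the 8, 36 of 123. In all 7 of these genes the insertions were at most 11 bases long and came from plain leukemias. Of all 297 insertion calls, 19 were in Nsd1, and of 26 insertions of at least 20 bases, 11 were. Of 10 insertions of at least 40 bases in the whole table, 8 were in Nsd1, and the other 2 in Vav1, a gene named here after its values were seen. Those 8 include the exon 19 and exon 21 sequences, each counted in more than 1 leukemia.

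**Figure D2:**
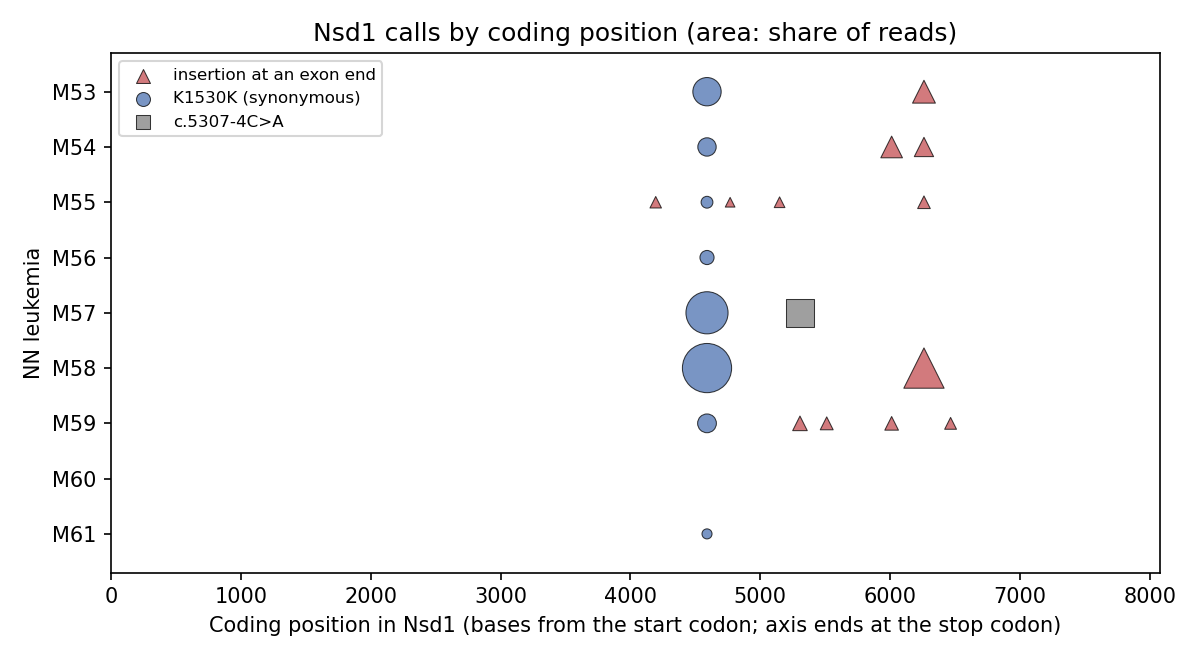
Nsd1 calls in the 9 NN leukemias by coding position, with the area of each symbol proportional to the share of reads. Insertions (triangles) run from coding base 4195 to 6466 of 8076, K1530K (circles) stands in 8 leukemias, and M60 has no call.

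All calls lay between coding bases 4195 and 6466, that is from the end of exon 7 to the end of exon 22. Every Nsd1 call came from an NN leukemia, 8 of 9, and 0 of 8 plain leukemias had any. Of the 108 sites of other genes listed in at least 2 leukemias, 21.3% were listed in NN leukemias only. That background bears only on Nsd1 sites that were themselves listed in at least 2 leukemias, K1530K among them. Most Nsd1 sites were not shared between leukemias, and for such sites no like background was computed. Insertions were listed in 3 thymus and 2 bone marrow leukemias, and K1530K in 5 thymus and 3 bone marrow leukemias. All 5 leukemias with an insertion also had K1530K, while M56, M57 and M61 had K1530K without an insertion. A site not listed for a leukemia has no depth in the table, so its share there is unknown.

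The share of reads that carried an insertion differed widely between leukemias. At the end of exon 21 it was 77 of 144 reads in M58, 21 of 122 in M53, 12 of 98 in M54 and 5 of 95 in M55. These are 53.5% (interval 45% to 61.8%), 17.2% (11% to 25.1%), 12.2% (6.49% to 20.4%) and 5.26% (1.73% to 11.9%). The interval of M58 lay above those of the other 3, which overlapped each other. At the end of exon 19 the share was 17 of 110 reads in M54 (15.5%, interval 9.27% to 23.6%) and 9 of 147 in M59 (6.12%, interval 2.84% to 11.3%), with intervals that overlapped.

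The other insertions rested on few reads. In M55 those at exons 7, 12 and 14 had 3 of 69, 3 of 98 and 5 of 133 reads, and in M59 those at exons 15, 16 and 22 had 8 of 114, 8 of 146 and 3 of 65 reads (first call of each pair). Within M55 the shares over 7 calls ran from 3.06% to 5.26%, and within M59 over 7 calls from 3.08% to 7.02%. All their intervals overlapped, so within each of these leukemias the exon ends could not be told apart by share. Alternative reads came in both read-pair orientations for 15 of 19 insertion calls, with the 2 calls of a phased pair counted separately. They came in 1 orientation for the exon 21 calls of M55 (5 and 0 reads) and the exon 22 calls of M59 (0 and 3 reads, 0 and 2 reads). In M58 the exon 21 insertion had 37 and 40 reads in the 2 orientations. The caller's own allele fraction was higher than the share of reads at exon 21, at 0.608 in M58 and 0.207 in M53.

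K1530K (c.4590G>A, chromosome 13, position 55277621, exon 11) leaves the lysine unchanged and was the 1 Nsd1 site marked as a database variant, with dbSNP build 125. It was listed in 8 leukemias and was carried by 188 of 236 reads in M58, 104 of 178 in M57, 23 of 87 in M53, 13 of 112 in M59, 8 of 72 in M54, 5 of 76 in M56, 4 of 87 in M55 and 3 of 90 in M61. The shares were 79.7% (interval 74% to 84.6%) in M58, 58.4% (50.8% to 65.8%) in M57 and 26.4% (17.6% to 37%) in M53, and these 3 intervals did not overlap. The remaining 5 lay between 3.33% and 11.6%, with intervals that overlapped each other. Over the 8 leukemias the median share was 11.4%. The alternative reads summed to 348, with 161 in one orientation and 187 in the other.

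**Figure D3:**
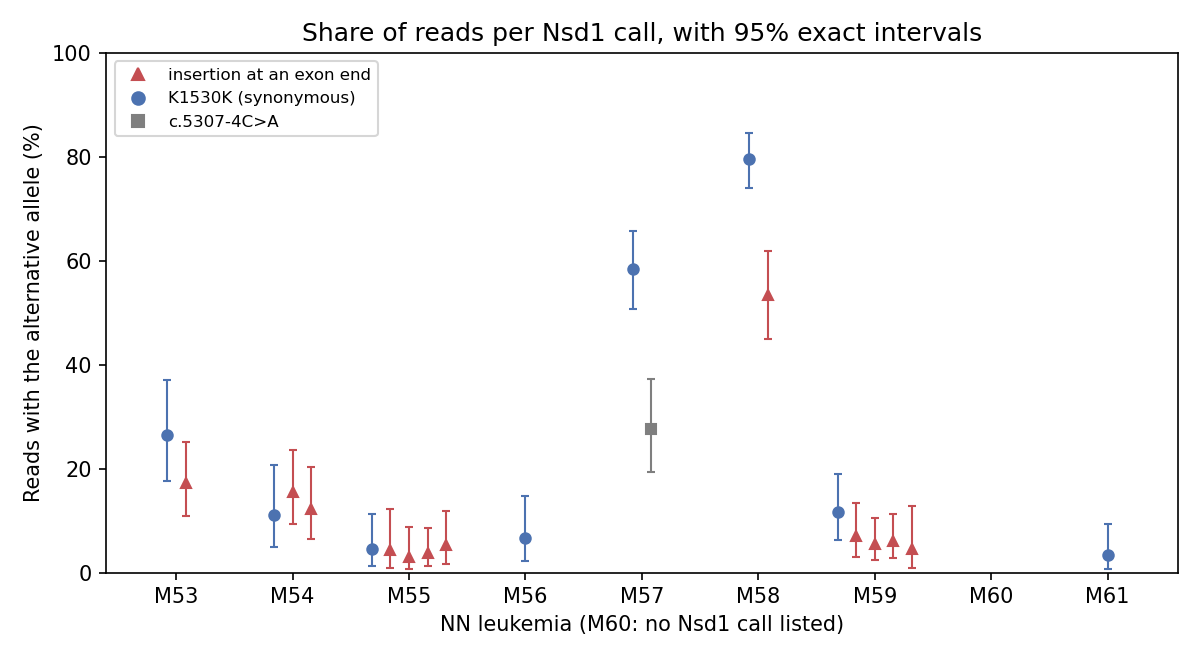
Share of reads with the alternative allele (y axis, percent) for each Nsd1 call in the NN leukemias, with 95% exact binomial intervals; of paired insertion calls the first is drawn. M58 is highest for both K1530K (79.7%) and the exon 21 insertion (53.5%), and all values of M55 and M61 lie under 6%.

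In the 5 leukemias that listed both, K1530K and the insertions had shares of similar order. M56, M57 and M61 had K1530K at 6.58%, 58.4% and 3.33% with no insertion listed. In M55 K1530K was at 4.60% and the insertions at 3.06% to 5.26%, and in M54 it was at 11.1% against 12.2% to 15.5%. M53 had 26.4% against 17.2%, and M59 11.6% against 3.08% to 7.02%, with overlapping intervals in both. In M58 the synonymous share of 79.7% exceeded the 53.5% of the insertion, and these intervals, which cover counting error only, did not overlap. By the caller's own allele fraction the values in M58 were 0.794 for K1530K and 0.608 for the insertion, a smaller difference. Over the 4 leukemias with the exon 21 insertion both shares ran in the order M58, M53, M54, M55. This is a description over 4 leukemias, in which M54 differed from neither M53 nor M55 beyond the overlap of the intervals of the insertion share.

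M57, which had the K1530K share next below M58 and no insertion listed, carried a change of its own. It was c.5307-4C>A, 4 bases before exon 16 on the intron side (chromosome 13, position 55295983), in 29 of 105 reads (27.6%, interval 19.3% to 37.2%), with 17 and 12 alternative reads in the 2 orientations. It is annotated as a splice region change and was listed in no other leukemia. It lies in intron 15, at whose other end M59 carried the 52-base insertion, and its share was below that of K1530K in M57, with intervals that did not overlap.

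The depth at K1530K also differed between leukemias. Set over each leukemia's own median depth at shared sites, the total depth was 4.92 in M58 and 2.66 in M57, and between 0.922 and 1.71 in the other 6. Reference reads alone came to 1.0 times the own median in M58 and 1.10 times in M57, inside the range of 0.815 to 1.66 over all 8 leukemias. Alternative reads came to 3.92 times the own median in M58, 1.55 times in M57, 0.319 times in M53 and at most 0.112 times in the other 5. In M58, 0 of the 61 other sites listed were as deep as K1530K, while in M57, 10 of 81 were. At the shared sites of M58, relative depth ran from 0.271 to 3.54. In M57 and M58, reference reads thus lay within the range of the other 6 leukemias, and alternative reads above it.

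**Figure D4:**
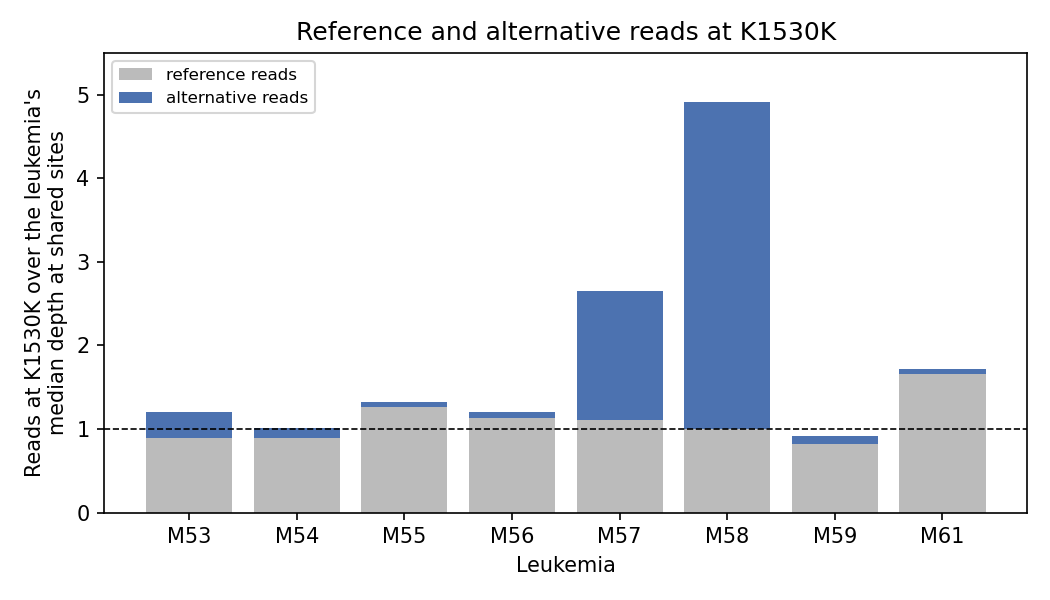
Reads at K1530K divided by each leukemia's median depth at sites shared by at least 10 leukemias (dashed line, 1), stacked as reference (grey) and alternative reads (blue). The grey parts run from 0.815 to 1.66, and the totals of M57 (2.66) and M58 (4.92) stand above the others.

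At the exon 21 end, too, M58 had the highest depth. It had 144 reads, 3.0 times its own median, of which reference reads were 1.40 times and reads with the insertion 1.60 times. At the first call of each pair, M53, M54 and M55 had depths of 1.69, 1.37 and 1.45 times their medians, with reference reads at 1.40, 1.20 and 1.37 times. At the second call, reference reads were 1.19 times the median in M54 and 1.47 times in M55. Over both calls the reference reads of the 4 leukemias thus ran from 1.19 to 1.47 times the own median, while reads with the insertion ran from 0.0763 times in M55 to 1.60 times in M58.

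The wild-type tail showed 0 alternative reads at all 28 calls. Each leukemia was called against this tail, so that count is partly set by the calling and is no independent observation. The depth of the tail limits further what it says. At K1530K it had 23 reads, which allows a share of up to 13% (3 reads of 23). The shares of M53, M57 and M58 lay above that limit and the other 5 below it. At the insertions the tail had 10 to 96 reads, which allows shares of 3.13% to 30%, and 4 of the 19 insertion calls had a share above their limit. Among these 4, only the exon 21 call of M58 had its whole interval above the limit (from 45%, against 16.7%). The intervals of M53 at exon 21, M55 at exon 14 and M59 at exon 15 reached below their limits. For the other 15 of the 19, the 0 reads of the tail do not exclude a like share there. At c.5307-4C>A the tail had 37 reads, which allows up to 8.11%.

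Sites most like K1530K in the leukemias that listed them were compared by the Jaccard index, the number of leukemias in both sets over the number in either, across 17 leukemias. The Ankrd13a change p.Ala313Thr had an index of 0.778, shared 7 leukemias, and was listed in M60 in place of M61. A synonymous Ankrd33b site and a site between Mup17 and Gm2083 had 0.667, and 2 adjacent sites near LOC100041034 had 0.636. The allele fraction of the Ankrd13a site ran from 0.296 to 0.643, and that of the Ankrd33b site from 0.333 to 1. K1530K, with the caller's fraction from 0.039 to 0.794, reached far lower values than either. The Mup17 site stayed between 0.024 and 0.053.

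Other genes that write, remove or read methylation of lysine 36 of histone H3 were looked up in the same calls. Of 28 listed genes, 4 (14.3%) had 1 call each and 24 had 0, and none of the 4 calls was an insertion. As background, 6.01% of the 21900 protein-coding genes of the RefSeq gene table had a call and 0.863% an insertion. Gene length was not taken into account, and nothing particular to the list is read from these shares. Brpf1, which encodes a subunit of histone acetyltransferase complexes with a domain that binds this mark, had p.Glu827Lys in 38 of 80 reads in M19. Kdm4b, a histone demethylase gene, had p.Ala777Val in 3 of 116 reads in M24. Smyd2, a methyltransferase gene, had an intron change near an exon in 3 of 50 reads in M20, and Phf1, whose product binds the mark, a synonymous change in 5 of 84 reads in M21. These 4 leukemias are plain, so none of them carried an Nsd1 call. The genes Nsd2, Nsd3, Setd2 and Ash1l, which encode related or further methyltransferases of this lysine, were among those without a call.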

How the data were processed

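Exome sequencing reads were processed by the submitters. Tools listed in the submitters' processing notes are BWA 0.7.17, GATK (version not given in the sources used here) and bcl2fastq 2.17.1.14, and the builds are mm10 and GRCm38. Read numbers per call are raw counts deposited by the authors, and the caller's own allele fraction, as deposited by the authors, is a fraction from 0 to 1. All 2653 rows had passed the filter and lay in bait regions. The 27 other columns of per-sample values were not used. Groups came from the tissue labels and the NN ending from the titles.

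Exon and intron numbers that a spreadsheet had stored as dates were read back. Shares are alternative reads over depth with 95% Clopper-Pearson intervals (scipy 1.17.1), and both these and the limit of 3 reads for a count of 0 cover counting error only. Insertions of a leukemia at 1 exon end were joined through the reference bases between them, with n where no row gives the base. The joining was tested on made-up alleles. Frames were read from the coding position in the deposited annotation. No genome or protein sequence was used, so the planned match to the protein was not run. The named genes are Nsd1, every gene with a call of the H3K36 list, up to 5 other genes with most exon-end insertions (ties by symbol, which left out Lrguk and Smarca2, tied at 1 call and named after their values were seen) and the 5 sites nearest to K1530K by Jaccard index. Frame reading and the comparison of alleles were added after the calls were seen. Members, lists and alternatives were chosen with earlier results of these data known. No test between groups was run. Single leukemias that stood apart were sought with Dixon's gap rule.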

Additional observations from a re-analysis of the deposited data

Results flagged for a closer look

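Depth at K1530K over the leukemia's own median was 4.92 in M58, far from the other 7 NN leukemias that listed the site (the gap to the next value was 0.566 of the range, above Dixon's 95% critical value). At the end of exon 21, reference reads over the own median were 1.20 in M54, the lowest of 4 leukemias whose other values lay close together (the gap was 0.856 of the range, again above the critical value). That comparison used the first call of each pair. With the second call, chosen after seeing the data, M54 was at 1.19 and M55 at 1.47, and the gap of 0.748 of the range no longer exceeded the critical value. These are 2 of 9 such comparisons, and chance alone marks about 1 in 20 groups. The comparisons reuse the same leukemias, in a gene picked with earlier results known. The 2 counts therefore cannot be read as an excess over chance, and the flags are a description.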

How the results depend on the processing

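The table lists only calls past the caller's filter, and depth limits the low shares: 15 of 19 insertion calls and 5 of 8 K1530K calls had shares that the 0 reads of the wild-type tail do not exclude there. Of the 4 other insertion calls, only that of M58 at exon 21 had its whole interval above the limit. With an allele fraction of at least 0.10, 5 insertion calls in 3 leukemias at 2 locations were left, and K1530K in 5 leukemias. With at least 0.05, the insertions lay at 5 locations, and without merging neighbouring positions at 14, against 8. Leaving out each insertion leukemia in turn gave 12 to 18 insertion calls and 5 to 8 locations, the lowest without M55 or without M59. The share of other genes' insertions near exons was 6.12% within 10 bases and 1.23% for insertions of at least 10 bases. Median relative depth over the Nsd1 calls was 1.34 against the leukemia's own depth and 2.40 with the ratio to the wild-type depth at the site, scaled to that ratio at shared sites. For M58 at K1530K these were 4.92 and 9.89; the cause was not tested. The other alternatives tried, among them depth minimums of 20 and 50 reads, stayed within 1.5 times the count, or within the spread for a value. No paired analysis was possible, since every leukemia came from a different mouse and the labels match the tail to no single leukemia. No test between groups was run. The planned match of the insertions to the protein was not run, since no protein or genome sequence was used here.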
